A study of Mus musculus with 8 samples.

Results

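The chromatin modifier and remodeller genes measured here were the genes on the array whose symbols belong to the Kmt2, Setd, Prmt, Kat, Dnmt, Kdm, Hdac, Sirt, Tet, Brd and Chd series, together with the Polycomb genes Ezh1, Ezh2, Suz12, Eed and Jarid2. This rule, based on names, found 95 genes with 138 probes among the 20972 gene symbols with a probe. Of the 95 genes, 91 passed the filter, which asks that all arrays of 1 group or more be well above background, and were tested. Brd8dc, Kdm4d and Kdm5d were well above background on 0 of 8 arrays. The 2 Hdac9 probes were so only on some untreated arrays. Kmt2a had no probe named through the gene table.

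The RNA came from mouse embryonic stem cells, pluripotent cells cultured in all groups with 250 nM PD173074, which inhibits the FGF receptors that act upstream of Erk, and with the self-renewal cytokine LIF. On 3 arrays the cells had received 5 µM actinomycin D, a blocker of transcription, and 30 min later 250 nM 4-hydroxytamoxifen (4OHT) for 4 h. On 2 arrays the same actinomycin D treatment was followed by 4 h of the solvent ethanol (vehicle), and 3 arrays held RNA of untreated cells (0 h). Neither the cell line nor the target of 4OHT in it is given by the labels, and the titles of the untreated samples also carry an abbreviation of actinomycin D although their treatment label says untreated.

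Chromatin is marked by enzymes that write chemical groups onto histones or DNA, enzymes that erase them, proteins that read them and ATP-driven machines that move nucleosomes. In embryonic stem cells, Polycomb repressive complex 2 (PRC2) places the repressive methyl mark on histone H3 at developmental genes, DNA methyltransferases and Tet dioxygenases set and remove DNA methylation, and the deacetylases and remodellers of the NuRD complex act with both. When transcription is blocked, the amount of an mRNA at a later time reflects how fast it is lost.

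All log2 levels are the log2 processed signal of a probe minus the 75th percentile of its array, and all log2 differences are on that scale unless the spike-in scale is named ("by spike-in" for short). The 75th percentile itself was 180 to 209 with 4OHT, 166 to 205 with vehicle and 333 to 457 without treatment, and 53.0 to 75.7% of spots were well above background. Set against 8 spike-in control probes, the 75th percentile was lower by a log2 difference of −1.28 in vehicle than in untreated cells and of −0.31 in 4OHT than in vehicle cells. A gene that rises on the scale used here can therefore still be below untreated by spike-in. That value is given beside most rises of single genes, but not for the stem cell markers or for further probes of a gene. All 10 embryonic stem cell markers examined were well above background on all 8 arrays, but 4 rose and 3 fell in vehicle against untreated cells, among them Sox2 (−3.54) and Klf4 (−3.61). Of 7 primitive endoderm markers 5 were called lower in vehicle cells and 1 higher, and the 5 were not well above background on any 4OHT or vehicle array. These 5 passed the filter through the untreated arrays alone, so the filter favoured a fall. The median difference of the 7 in vehicle against untreated cells was −1.53, but 0.37 with normexp background correction. The summed linear level of the 7 was 0.290 to 0.421 in 4OHT cells, 0.354 to 0.413 in vehicle cells and 0.714 to 0.941 in untreated cells. Of 5 trophoblast markers Cdx2 and Elf5 did not pass the filter, and 2 of the other 3 were called lower, with a summed level of 0.277 to 0.617 in 4OHT cells, 0.321 to 0.603 in vehicle cells and 0.612 to 0.981 in untreated cells. In the fibroblast list, Col3a1, Postn, Dcn and Lum did not pass the filter. The summed linear level of the 5 other fibroblast markers, of which Fn1 and Thy1 are also made by other cells, was 192 to 213 in 4OHT cells, 174 to 190 in vehicle cells and 62.5 to 69.3 in untreated cells. Most of this sum is Fn1, which was higher in vehicle than in untreated cells by 1.52 (0.24 by spike-in), as Col1a2 was by 0.80 (−0.47 by spike-in), while Twist1 was lower (−2.23) and Col1a1 (0.38) and Thy1 (0.20) did not pass. The part of these markers in the results was not tested. The 4OHT arrays lay on a slide of their own and the other arrays on a second slide, so slide and 4OHT cannot be told apart, nor can the position on the second slide and the vehicle.

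In vehicle cells 41 of the 91 chromatin genes rose against untreated cells (45.1%) and 24 fell (26.4%), with limma's moderated test at an adjusted p under 0.05. Among all features tested, 41.5% rose and 15.9% fell, and among features with a gene symbol 41.4% rose and 19.1% fell. The median difference of the 91 genes was 0.26, against 0.40 over all features and 0.35 over features with a symbol. On the spike-in scale 0 of the 91 genes were called higher, also at an unadjusted p under 0.05, and 70 were called lower (76.9%, against 70.0% of features with a symbol), and the differences ran from −2.90 to −0.11. Of the 35 genes in the families that write marks, among them the cofactor Dnmt3l and the non-coding Dnmt3aos, 14 rose and 12 fell, with a median of 0.18. Of the erasers 20 of 36 rose and 9 fell (median 0.46), of the bromodomain readers 3 of 7 rose and 2 fell (median 0.55), and of the Chd remodellers 3 of 10 rose and 1 fell (median 0.13). Taken against the spike-in probes, these 4 classes had medians of −1.1, −0.82, −0.73 and −1.14, and differences between classes were not tested. The counts of single families below are to be read beside the shares over features with a symbol (41.4% and 19.1%). Several lie near these shares, such as 7 rises among 16 Kdm genes, and no family was tested against them. In bulk RNA, fewer cells of a type and less RNA per cell cannot be told apart.

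**Figure D1:**
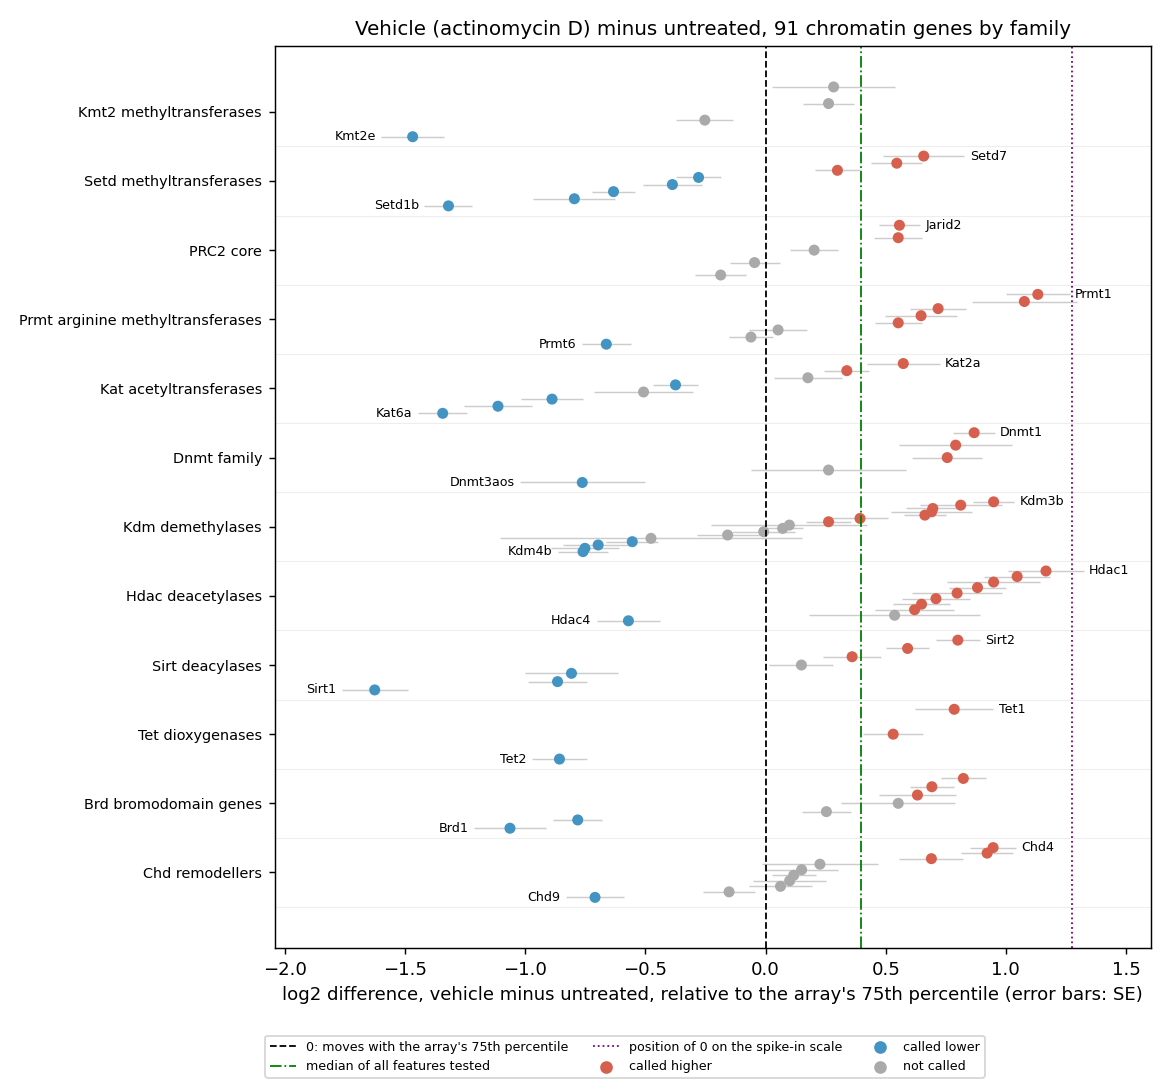
Each point is 1 of the 91 chromatin genes, placed by its log2 difference of vehicle minus untreated relative to the array's 75th percentile (horizontal axis, bars: standard error) and grouped by family, with most of the lowest and highest called genes of a family labelled. The 41 genes called higher lie right of the dashed zero line but left of the dotted line, where zero lies on the spike-in scale, and the 24 called lower reach from Sirt1 at −1.63 to Setd5 at −0.28.

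Of the 4 Kmt2 genes, which encode or resemble methyltransferases for lysine on histone H3, 1 fell and 0 rose (1 rose at an unadjusted p under 0.05). Kmt2e, which encodes a SET and PHD finger protein of this family, had log2 levels of −1.31, −1.64 and −1.62 in 4OHT cells, −1.40 and −1.59 in vehicle cells and −0.02, 0.02 and −0.07 in untreated cells. The untreated arrays were all higher than the other arrays, and the difference of vehicle minus untreated was −1.47 ± 0.13 (adjusted p = 0.000237). Kmt2b, Kmt2c and Kmt2d had differences of 0.26, −0.25 and 0.28, none of which passed the test, although 1 of the 2 other Kmt2d probes was called higher in the fit of all probes (0.88, adjusted p = 0.00371).

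The Setd genes, which also carry the SET methyltransferase domain, parted into 5 that fell and 3 that rose. Setd1b, a catalytic subunit of the SET1 complexes that methylate histone H3 at promoters, had log2 levels of 0.08, −0.16 and −0.03 in 4OHT cells, 0.56 and 0.53 in vehicle cells and 1.89, 1.86 and 1.84 in untreated cells. The 3 groups did not overlap, and vehicle minus untreated was −1.32 ± 0.10 (adjusted p = 0.000144). Its paralog Setd1a (−0.63) and Setd4 (−0.80) also fell, as did Setd2, the methyltransferase that follows elongating polymerase (−0.39; called in 3 of 8 fits with 1 array left out, −0.54 to −0.24), and Setd5 (−0.28; called in 1 of 8 fits with 1 array left out, −0.33 to −0.24). Setd7, a histone and non-histone lysine methyltransferase, rose by 0.66 (−0.62 by spike-in) and Setd3, which methylates actin, by 0.55 (−0.73 by spike-in). Setd7 was called in 7 of 8 fits with 1 array left out, 0.49 to 0.83. Setd6 rose by 0.30 (called in 3 of 8 fits with 1 array left out, 0.25 to 0.35), but lay below untreated by spike-in (−0.98) and with quantile normalization and normexp background correction.

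Of the 5 core PRC2 genes, 2 rose and 0 fell on the scale used here. All 5 were called lower on the spike-in scale, as were 70.0% of features with a symbol. Ezh2, the main catalytic subunit in proliferating cells, had log2 levels of 4.40, 4.54 and 4.45 in 4OHT cells, 4.37 and 4.54 in vehicle cells and 3.86, 3.88 and 3.97 in untreated cells. The untreated arrays were lowest, and vehicle minus untreated was 0.55 ± 0.10 (adjusted p = 0.0032; −0.73 by spike-in). Ezh1, the alternative catalytic subunit, had log2 levels of 3.52, 3.40 and 3.36 in 4OHT cells, 3.01 and 2.96 in vehicle cells and 3.29, 3.15 and 3.07 in untreated cells, with both vehicle arrays below the untreated ones but a difference that did not pass (−0.19 ± 0.11, adjusted p = 0.167). A second of its 3 probes was called lower in the fit of all probes (−0.33, adjusted p = 0.0318), and the third did not pass (0.21, adjusted p = 0.63).

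Suz12, the scaffold of the complex, had log2 levels of 4.16, 4.22 and 4.13 in 4OHT cells, 4.12 and 4.31 in vehicle cells and 4.08, 3.93 and 4.03 in untreated cells. Eed, the subunit that binds the methyl mark, had log2 levels of 6.79, 6.93 and 6.89 in 4OHT cells, 6.71 and 6.84 in vehicle cells and 6.93, 6.80 and 6.74 in untreated cells. The groups of Eed overlapped, and neither gene passed the test for vehicle minus untreated (0.20 ± 0.10, adjusted p = 0.127, for Suz12, and −0.05 ± 0.10, adjusted p = 0.725, for Eed). Jarid2, which helps to bring PRC2 to its targets, had log2 levels of 3.86, 3.87 and 3.76 in 4OHT cells, 4.29 and 4.24 in vehicle cells and 3.70, 3.68 and 3.75 in untreated cells, and the vehicle arrays stood above both other groups. Vehicle minus untreated was 0.56 ± 0.09 (adjusted p = 0.00164; −0.72 by spike-in).

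The arginine methyltransferases (Prmt) had 5 rises and 1 fall among 8 genes. Prmt1, the enzyme behind most asymmetric arginine dimethylation, had log2 levels of 8.0, 8.25 and 8.26 in 4OHT cells, 8.29 and 8.28 in vehicle cells and 7.32, 7.13 and 7.01 in untreated cells. The untreated arrays lay below all others and vehicle minus untreated was 1.13 ± 0.13 (adjusted p = 0.000489; −0.14 by spike-in). Prmt8, a membrane-bound relative of Prmt1, had log2 levels of −0.83, −0.29 and −0.42 in 4OHT cells, −0.78 and −0.18 in vehicle cells and −1.56, −1.59 and −1.52 in untreated cells, again with no overlap, and a difference of 1.08 ± 0.22 (adjusted p = 0.00505; −0.20 by spike-in). Prmt5, the main symmetric arginine methyltransferase, had log2 levels of 5.29, 5.46 and 5.36 in 4OHT cells, 5.54 and 5.51 in vehicle cells and 5.05, 4.90 and 4.97 in untreated cells. It was higher on both vehicle arrays than on any untreated array, with a difference of 0.55 ± 0.10 (adjusted p = 0.00276; −0.72 by spike-in and −0.05 with quantile normalization). Prmt7 rose by 0.72 (−0.56 by spike-in), and Prmt3 by 0.65 (−0.63 by spike-in; called in 7 of 8 fits with 1 array left out, 0.52 to 0.78). Prmt6, which methylates histone H3 on arginine, was the gene of this family that fell (−0.66 ± 0.10, adjusted p = 0.00154), while Prmt2 at 0.05 and Prmt9 at −0.06 did not pass.

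The lysine acetyltransferases (Kat) had 4 falls and 2 rises among 8 genes, with a median of −0.44. Kat6a, a MYST acetyltransferase, had log2 levels of 0.97, 1.19 and 1.1 in 4OHT cells, 1.06 and 0.96 in vehicle cells and 2.37, 2.29 and 2.41 in untreated cells. Its paralog Kat6b had log2 levels of −0.04, 0.09 and 0.02 in 4OHT cells, 0.13 and −0.29 in vehicle cells and 0.94, 1.15 and 1.01 in untreated cells. Both genes were higher on every untreated array than on any other array, and vehicle minus untreated was −1.34 ± 0.10 (adjusted p = 0.000151) for Kat6a and −1.11 ± 0.14 (adjusted p = 0.00069) for Kat6b. Kat14, a subunit of the ATAC complex (−0.89), and Kat8, which acetylates histone H4 (−0.38; called in 7 of 8 fits with 1 array left out, −0.41 to −0.32), fell as well. Kat2a, the acetyltransferase of the SAGA complex, rose by 0.57 (−0.70 by spike-in; called in 7 of 8 fits with 1 array left out, 0.39 to 0.76). Kat7, a MYST acetyltransferase linked to replication origins, rose by 0.34 (called in 5 of 8 fits with 1 array left out, 0.32 to 0.38), but lay below untreated by spike-in (−0.94) and with quantile normalization.

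Among the 5 genes of the Dnmt series, 3 rose and 1 fell. Dnmt1, which copies DNA methylation after replication, had log2 levels of 3.19, 3.17 and 3.13 in 4OHT cells, 3.15 and 3.10 in vehicle cells and 2.23, 2.32 and 2.23 in untreated cells. The untreated arrays were lowest, and vehicle minus untreated was 0.87 ± 0.09 (adjusted p = 0.000309; −0.41 by spike-in). Dnmt3l, the cofactor without catalytic activity, had log2 levels of 6.99, 7.35 and 7.38 in 4OHT cells, 7.17 and 7.32 in vehicle cells and 6.51, 6.38 and 6.57 in untreated cells. Vehicle minus untreated was 0.76 ± 0.15 for it (adjusted p = 0.0041; −0.52 by spike-in and −0.14 with quantile normalization).

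Dnmt3b, a de novo methyltransferase, had log2 levels of 6.26, 5.80 and 5.77 in 4OHT cells, 6.11 and 5.53 in vehicle cells and 5.09, 5.20 and 4.80 in untreated cells. The vehicle arrays were above the untreated ones and differed from each other by more than those of the other Dnmt genes named so far. Its difference of 0.79 ± 0.24 (adjusted p = 0.0245; −0.49 by spike-in) was called in 5 of 8 fits with 1 array left out, 0.50 to 1.08, and did not pass without vehicle replicate 1 (0.50), untreated replicate 1 (0.82) or untreated replicate 3 (0.68). Dnmt3b had 3 probes, and the others did not pass in the fit of all probes (0.645, adjusted p = 0.073, and 0.57, adjusted p = 0.13). Dnmt3a, the other de novo enzyme, had log2 levels of −1.40, −0.53 and −1.26 in 4OHT cells, −1.47 and −1.5 in vehicle cells and −1.29, −1.80 and −2.14 in untreated cells, with overlapping groups and a difference of 0.26 ± 0.32 (adjusted p = 0.511). The non-coding gene Dnmt3aos fell (−0.76), but was called in 3 of 8 fits with 1 array left out, −0.89 to −0.63. With normexp background correction it was called higher than untreated instead.

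The histone demethylases (Kdm) had 7 rises and 4 falls among 16 tested genes, with a median of 0.09. Kdm3b, a demethylase of histone H3, had log2 levels of 0.47, 0.46 and 0.42 in 4OHT cells, 0.56 and 0.59 in vehicle cells and −0.36, −0.33 and −0.43 in untreated cells. The untreated arrays were the only ones below zero, and vehicle minus untreated was 0.95 ± 0.09 (adjusted p = 0.00024; −0.33 by spike-in). Kdm1a, the flavin-dependent demethylase of the CoREST complex, had log2 levels of 6.42, 6.31 and 6.24 in 4OHT cells, 6.47 and 6.43 in vehicle cells and 5.88, 5.78 and 5.61 in untreated cells. Its difference was 0.70 ± 0.11 (adjusted p = 0.00189; −0.58 by spike-in and −0.02 with quantile normalization). Kdm5b, which removes methyl groups from histone H3 at promoters, had log2 levels of 6.78, 7.05 and 7.02 in 4OHT cells, 7.32 and 7.48 in vehicle cells and 6.99, 6.50 and 6.65 in untreated cells. The vehicle arrays were above both other groups, and vehicle minus untreated was 0.69 ± 0.17 (adjusted p = 0.0107; −0.59 by spike-in and −0.20 with quantile normalization), a call lost without vehicle replicate 2 (0.61).

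Kdm6b and Kdm6a, paralogs that act on the Polycomb methyl mark of histone H3, went in opposite directions, with 0.81 for Kdm6b (−0.47 by spike-in) and −0.56 for Kdm6a. Kdm5c rose by 0.66 (−0.61 by spike-in), Kdm5a by 0.39 (−0.88 by spike-in; called in 4 of 8 fits with 1 array left out, 0.31 to 0.48) and Kdm8 by 0.26 (−1.02 by spike-in; called in 0 of 8 fits with 1 array left out, 0.20 to 0.33). The other falls were Kdm4b (−0.76), Kdm2b, a subunit of a variant PRC1 complex that binds unmethylated CpG islands (−0.75), and its paralog Kdm2a (−0.70). Kdm7a was well above background on all 3 untreated arrays and on none of the vehicle arrays, so it entered the test through the untreated group, and the difference did not pass (adjusted p = 0.544).

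Of the 10 tested zinc-dependent deacetylases (Hdac), 8 rose and 1 fell, and their median was 0.75 (−0.52 by spike-in). Hdac1, a catalytic subunit of NuRD, Sin3 and CoREST, had log2 levels of 8.05, 7.95 and 7.98 in 4OHT cells, 8.34 and 7.97 in vehicle cells and 7.13, 7.07 and 6.76 in untreated cells. Hdac2, its close paralog, had log2 levels of 0.78, 0.67 and 0.35 in 4OHT cells, 0.78 and 0.67 in vehicle cells and −0.04, 0.07 and 0.03 in untreated cells. For both genes all untreated arrays lay below all other arrays, and vehicle minus untreated was 1.17 ± 0.16 for Hdac1 (adjusted p = 0.00085; −0.11 by spike-in) and 0.71 ± 0.14 for Hdac2 (adjusted p = 0.00448; −0.57 by spike-in). Hdac3, the catalytic subunit of the NCoR and SMRT complexes, had log2 levels of 1.70, 1.97 and 1.92 in 4OHT cells, 1.67 and 1.93 in vehicle cells and 0.63, 0.76 and 0.87 in untreated cells and a difference of 1.05 ± 0.14 (adjusted p = 0.000756; −0.23 by spike-in). The other rises ran from 0.62 for Hdac11 (−0.66 by spike-in; called in 6 of 8 fits with 1 array left out, 0.49 to 0.71) to 0.95 for Hdac6, a cytoplasmic deacetylase of tubulin (−0.33 by spike-in). Hdac4, a class IIa deacetylase, fell (−0.57), and Hdac7 at 0.54 did not pass.

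The sirtuins, which use NAD+ to remove acyl groups, had 3 rises and 3 falls among 7 genes. Sirt1, a nuclear deacetylase, had log2 levels of 2.90, 3.02 and 3.05 in 4OHT cells, 2.81 and 3.09 in vehicle cells and 4.66, 4.39 and 4.69 in untreated cells. The untreated arrays stood above all others, and vehicle minus untreated was −1.63 ± 0.14 (adjusted p = 0.000209), the largest fall among the 91 genes, and −2.90 by spike-in. Sirt7, a nucleolar sirtuin (−0.87), and Sirt4, a mitochondrial one (−0.81; called in 7 of 8 fits with 1 array left out, −1.09 to −0.53), were the other falls. Sirt2, which is mainly cytoplasmic, rose by 0.80 (−0.48 by spike-in), the mitochondrial Sirt3 by 0.59 (−0.69 by spike-in), and the nuclear Sirt6 by 0.36 (−0.92 by spike-in; called in 4 of 8 fits with 1 array left out, 0.26 to 0.46).

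The 3 Tet genes encode dioxygenases that oxidise 5-methylcytosine, and 2 of them rose while 1 fell. Tet1, the most studied of them in embryonic stem cells, had log2 levels of 5.43, 5.26 and 5.20 in 4OHT cells, 5.46 and 4.99 in vehicle cells and 4.34, 4.57 and 4.40 in untreated cells. Tet2 had log2 levels of 2.90, 3.04 and 3.01 in 4OHT cells, 2.60 and 2.65 in vehicle cells and 3.36, 3.44 and 3.65 in untreated cells. Tet1 was lowest and Tet2 highest on the untreated arrays, with no overlap for either, and vehicle minus untreated was 0.79 ± 0.16 for Tet1 (adjusted p = 0.00549; −0.49 by spike-in) and −0.86 ± 0.12 for Tet2 (adjusted p = 0.000873; −2.14 by spike-in). Tet3 rose by 0.53 (−0.75 by spike-in).

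**Figure D2:**
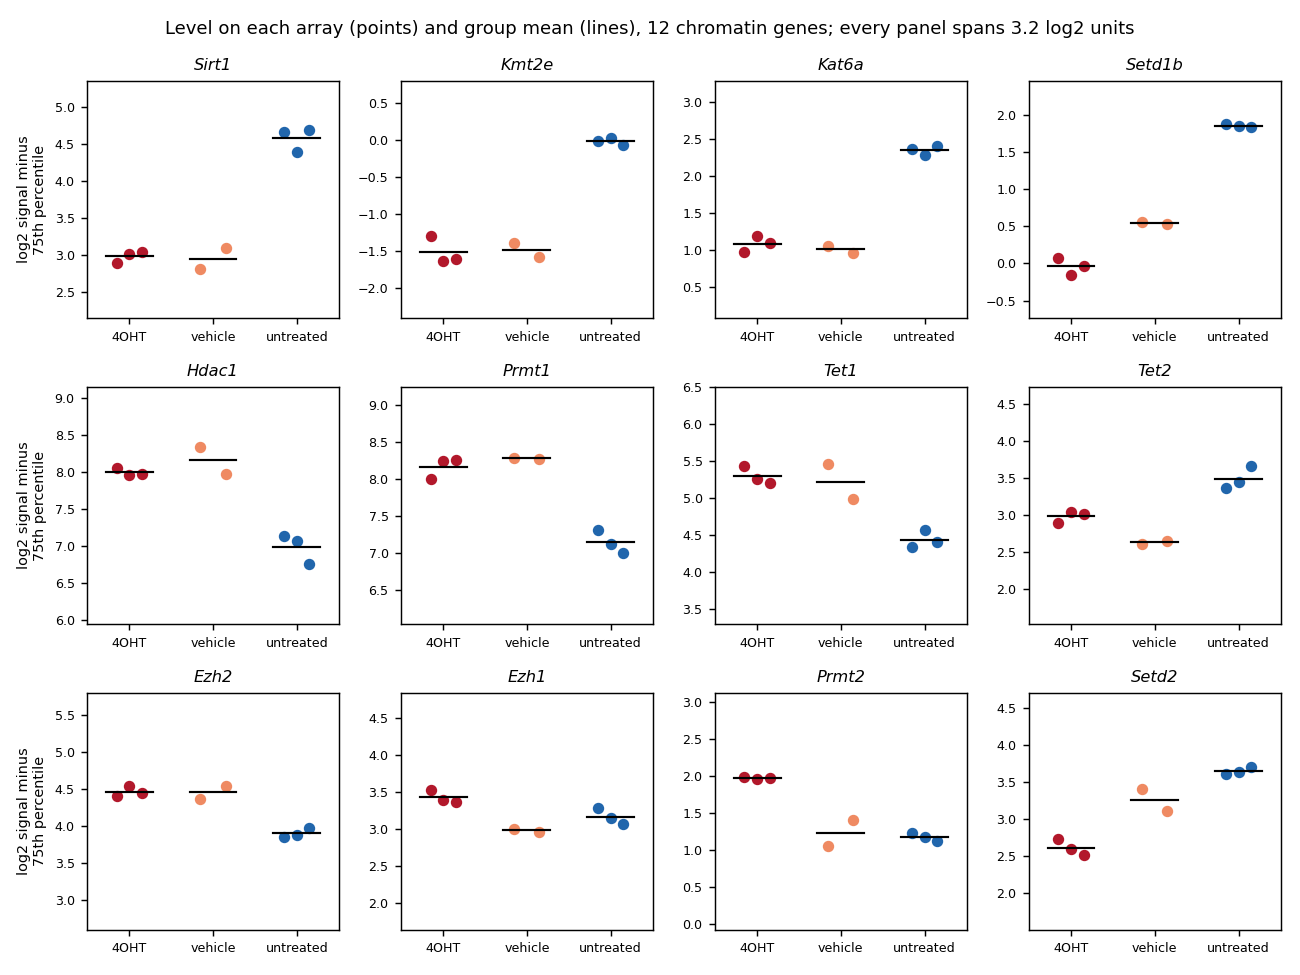
Log2 level relative to the array's 75th percentile (vertical axis, every panel spanning the same range) on the 3 4OHT, 2 vehicle and 3 untreated arrays for 12 chromatin genes chosen after their values were seen, with points for arrays and lines for group means. Sirt1, Kmt2e, Kat6a and Setd1b are highest on the untreated arrays, Hdac1, Prmt1, Tet1 and Ezh2 are lowest there (although below untreated by spike-in), and Prmt2 and Setd2 part the 4OHT from the vehicle arrays.

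Among the 7 bromodomain readers, 3 rose and 2 fell. Brd2, a reader of acetylated histones from the BET family, had log2 levels of 4.97, 4.91 and 4.88 in 4OHT cells, 4.66 and 4.65 in vehicle cells and 5.55, 5.46 and 5.32 in untreated cells. The untreated arrays were highest and those of 4OHT cells lay between the other groups, and vehicle minus untreated was −0.78 ± 0.10 (adjusted p = 0.000706). A second probe for Brd2 gave 0.22, which did not pass. Brd1, a scaffold of MYST acetyltransferase complexes, fell (−1.06). Brd3, also of the BET family, rose by 0.69 (−0.59 by spike-in), and Brd9, a subunit of a BAF-type complex, by 0.63 (−0.65 by spike-in; called in 7 of 8 fits with 1 array left out, 0.47 to 0.79).

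The Chd genes encode nucleosome remodellers, most of them with chromodomains, and 3 of 10 rose while 1 fell. Chd4, the ATPase of NuRD, had log2 levels of 6.48, 6.62 and 6.58 in 4OHT cells, 6.47 and 6.51 in vehicle cells and 5.63, 5.49 and 5.51 in untreated cells. The untreated arrays were lowest, and vehicle minus untreated was 0.95 ± 0.10 (adjusted p = 0.000328; −0.33 by spike-in). Chd1, a remodeller of active chromatin, had log2 levels of −0.92, −0.61 and −0.65 in 4OHT cells, −1.12 and −0.98 in vehicle cells and −1.04, −1.24 and −1.06 in untreated cells, with overlapping vehicle and untreated arrays and a difference of 0.06 ± 0.13 (adjusted p = 0.709). Chd1l rose by 0.92 (−0.36 by spike-in) and Chd3, a NuRD ATPase like Chd4, by 0.69 (−0.59 by spike-in), whereas Chd9 fell (−0.71). The remaining 6, among them Chd7 and Chd8, had differences of −0.15 to 0.23 that did not pass.

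Ratios between related genes on the same array do not depend on the factor by which each array is scaled, although quantile normalization can move them. For 8 pairs chosen after their values were seen, and therefore given without a test, the arrays of the vehicle group did not overlap with the untreated ones. The log2 ratio of Tet1 over Tet2 averaged 2.31 ± 0.19 in 4OHT cells (SD, n = 3), 2.60 ± 0.37 in vehicle cells (SD, n = 2) and 0.96 ± 0.19 in untreated cells (SD, n = 3). The ratio of Sirt2 over Sirt1 changed by 2.43 in vehicle cells against untreated cells, Setd7 over Setd1b by 1.98, Kat2a over Kat6a by 1.92, Hdac1 over Hdac4 by 1.74, Kdm6b over Kdm6a by 1.37 and Ezh2 over Ezh1 by 0.74. With quantile normalization the change of Hdac1 over Hdac4 was 0.80, and those of the other 7 pairs ran from 0.59 to 2.70. These ratios show unequal change between the probes of a pair, not which of the 2 genes changed. The ratio of Prmt2 over Prmt6 averaged 1.83 ± 0.07 in 4OHT cells (SD, n = 3), 0.46 ± 0.23 in vehicle cells (SD, n = 2) and −0.26 ± 0.13 in untreated cells (SD, n = 3), so the 3 groups were apart.

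**Figure D3:**
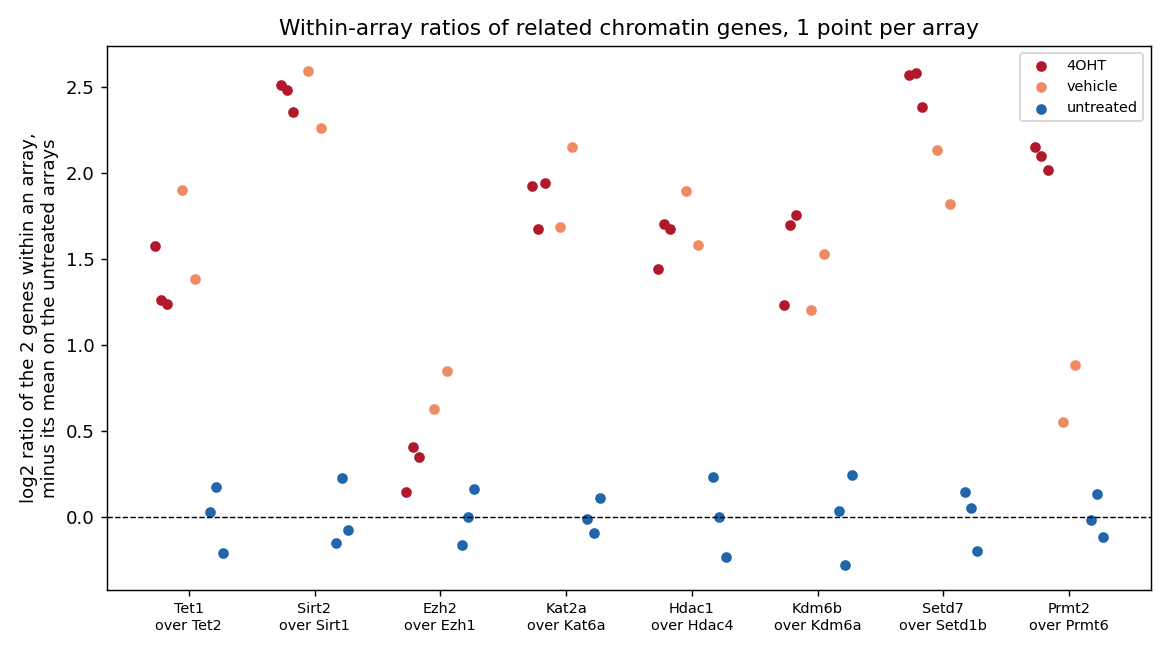
Log2 ratio of 2 chromatin genes measured on the same array, minus its mean on the untreated arrays (vertical axis), for 8 pairs chosen after their values were seen, with 1 point per array in the 4OHT, vehicle and untreated groups. For every pair shown the vehicle arrays lie above the untreated arrays, by a mean of 0.74 for Ezh2 over Ezh1 to 2.43 for Sirt2 over Sirt1.

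The comparison of 4OHT with vehicle, both after actinomycin D, shows which chromatin mRNAs differed between these groups. Their arrays lay on different slides, so a difference due to 4OHT cannot be told apart from a difference between slides. In 4OHT against vehicle cells 2 of 91 chromatin genes rose (2.20%) and 6 fell (6.59%). Among all features 0.923% rose and 2.58% fell, and among features with a symbol 1.33% rose and 3.07% fell. The median of the 91 genes was 0.02, against −0.05 over all features. On the spike-in scale 0 were called higher (0 also at an unadjusted p under 0.05) and 2, Kat8 and Prmt6, were called lower (2.20%, against 3.66% of features with a symbol). Of the 8 called genes 6 belong to the writer families, 1 is Jarid2 and 1 is a Chd gene, while 0 of 36 erasers and 0 of 7 readers passed (at an unadjusted p under 0.05, 3 erasers and 1 reader were higher and 1 eraser was lower).

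Of the 6 genes that were lower in 4OHT than in vehicle cells, 3 are Setd methyltransferases. Setd2 had log2 levels of 2.72, 2.59 and 2.51 in 4OHT cells, 3.41 and 3.10 in vehicle cells and 3.61, 3.63 and 3.69 in untreated cells. The 4OHT arrays were lowest, and 4OHT minus vehicle was −0.65 ± 0.12 (adjusted p = 0.0414). Setd1a had log2 levels of 1.70, 1.78 and 1.66 in 4OHT cells, 2.26 and 2.18 in vehicle cells and 2.87, 2.81 and 2.88 in untreated cells. With Setd1b, whose levels are given above, its 3 groups were apart in the order 4OHT, vehicle, untreated, and 4OHT minus vehicle was −0.51 ± 0.09 for Setd1a (adjusted p = 0.0324) and −0.58 ± 0.10 for Setd1b (adjusted p = 0.0314).

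Kat8 had log2 levels of 2.83, 2.75 and 2.82 in 4OHT cells, 3.47 and 3.41 in vehicle cells and 3.91, 3.74 and 3.78 in untreated cells, and Prmt6 had log2 levels of 0.09, 0.13 and 0.21 in 4OHT cells, 0.76 and 0.78 in vehicle cells and 1.51, 1.30 and 1.5 in untreated cells. Both genes were lowest on every 4OHT array, with differences of −0.64 ± 0.10 (adjusted p = 0.0216) and −0.63 ± 0.10 (adjusted p = 0.0278). Jarid2, higher on both vehicle arrays than on any other, had a difference of −0.43 ± 0.09 (adjusted p = 0.0489).

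Prmt2, an arginine methyltransferase that also acts as a nuclear receptor coactivator, had log2 levels of 1.99, 1.96 and 1.97 in 4OHT cells, 1.06 and 1.40 in vehicle cells and 1.23, 1.18 and 1.12 in untreated cells. The 4OHT arrays were highest and the other groups overlapped, and 4OHT minus vehicle was 0.74 ± 0.12 (adjusted p = 0.0267; 0.44 by spike-in). Chd9 had log2 levels of 1.56, 1.86 and 1.73 in 4OHT cells, 1.01 and 1.15 in vehicle cells and 1.75, 1.74 and 1.89 in untreated cells. Its 4OHT and untreated arrays overlapped above the vehicle arrays, and 4OHT minus vehicle was 0.64 ± 0.12 (adjusted p = 0.0411; 0.33 by spike-in). Ezh1 was higher on every 4OHT array than on any other, with a difference of 0.45 ± 0.11 that did not pass (adjusted p = 0.0743), while a second of its 3 probes passed in the fit of all 33008 probes (0.64, adjusted p = 0.028) and the third did not (1.03, adjusted p = 0.183).

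These 8 calls were close to the threshold. With 1 of the 8 arrays left out, Kat8 and Prmt2 were called in 2 of 8 fits, Prmt6 and Setd1b in 1, and Chd9, Jarid2, Setd1a and Setd2 in 0, with adjusted p of 0.0299 to 0.197 over these fits and differences of the same sign throughout. Without untreated replicate 2 the calls were Kat8 and Prmt6 (lower) and Prmt2 (higher), and without each of vehicle replicate 1, 4OHT replicate 2, 4OHT replicate 3 and untreated replicate 3 there was no call.

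**Figure D4:**
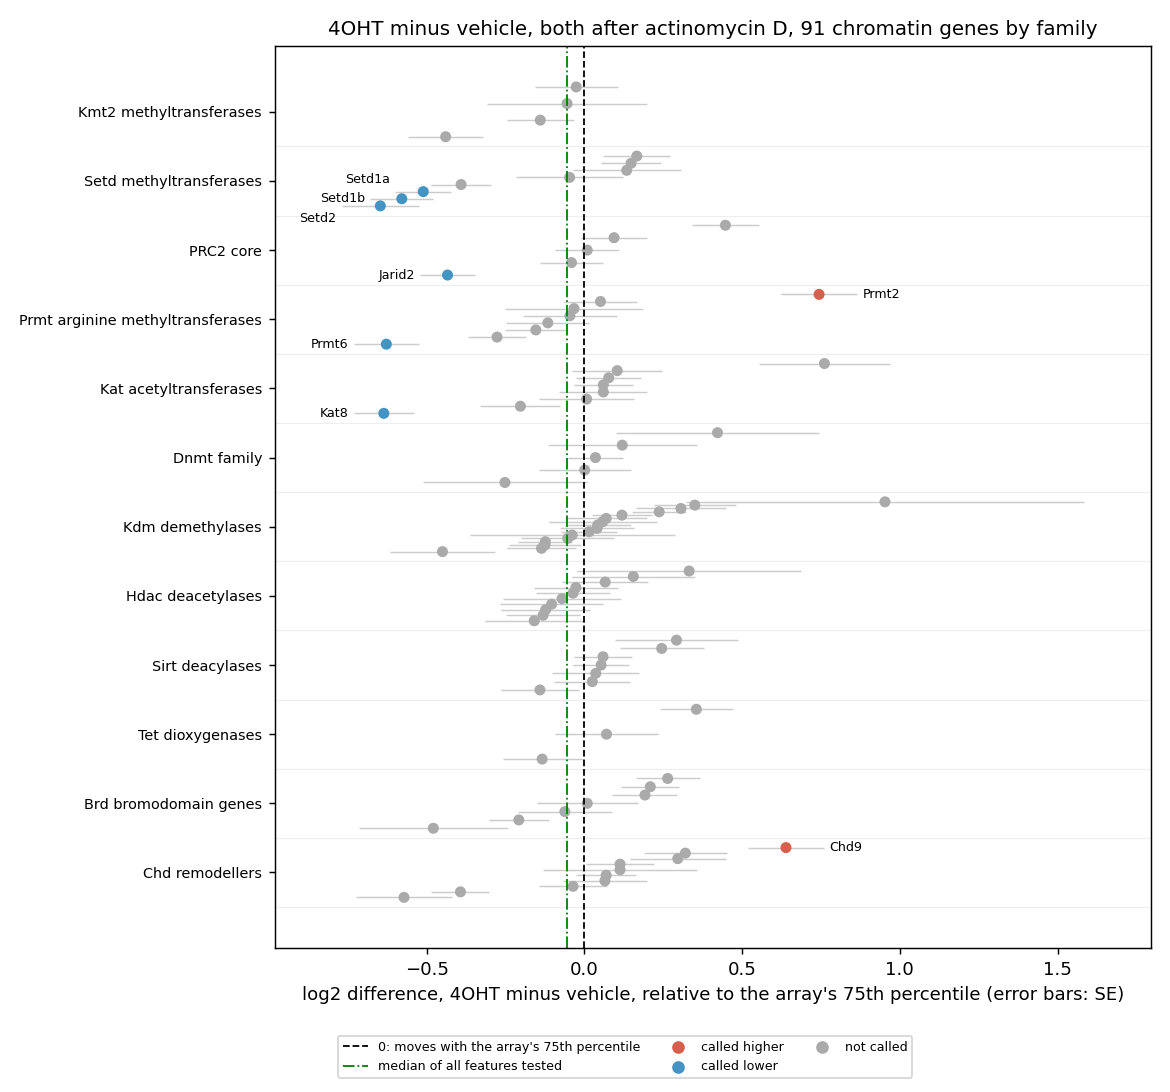
Each point is 1 of the 91 chromatin genes, placed by its log2 difference of 4OHT minus vehicle relative to the array's 75th percentile (horizontal axis, bars: standard error) and grouped by family, with the 8 called genes labelled. The calls lie between −0.65 for Setd2 and 0.74 for Prmt2. The uncalled Kdm7a (0.95) and Kat5 (0.76), both with wider error bars than the called genes, lie farther above zero.

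Against untreated cells, 48 of the 91 chromatin genes rose in 4OHT cells (52.7%) and 27 fell (29.7%). Among all features 41.0% rose and 18.7% fell, and among features with a symbol 43.7% rose and 21.5% fell. On the spike-in scale 90 of the 91 genes were called lower (98.9%, against 94.6% of features with a symbol) and 0 higher, also at an unadjusted p under 0.05. The comparison shares its untreated arrays with that of vehicle, so the 39 genes called higher in both and the 23 called lower in both are no independent repeat. Setd1b had the largest fall with −1.90 ± 0.09 (adjusted p = 1.1e-05), followed by Sirt1 with −1.59 ± 0.12 (adjusted p = 9.02e-05), Kmt2e with −1.5 ± 0.12 (adjusted p = 9.26e-05), Prmt6 with −1.29 ± 0.09 (adjusted p = 6.63e-05) and Kat6a with −1.27 ± 0.09 (adjusted p = 7.22e-05). The largest rises were those of Hdac3 with 1.11 ± 0.12 (−0.47 by spike-in), Hdac6 with 1.11 ± 0.18 (−0.48), Prmt8 with 1.04 ± 0.20 (−0.54), Prmt1 with 1.02 ± 0.12 (−0.57) and Chd4 with 1.02 ± 0.09 (−0.57), with adjusted p of 0.000295, 0.0014, 0.0031, 0.000362 and 0.000116.

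Hdac6 had log2 levels of 5.00, 5.44 and 5.41 in 4OHT cells, 4.92 and 5.34 in vehicle cells and 4.27, 3.99 and 4.29 in untreated cells. Prmt2 was called higher in 4OHT cells (0.80, adjusted p = 0.000674; −0.79 by spike-in), and its difference in vehicle cells was 0.05, whereas Jarid2 and Chd9 had differences of 0.12 and −0.07 in 4OHT cells that did not pass.

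Several probes were kept for 28 of the genes, and they did not always give the same call. For vehicle minus untreated, all probes of a gene had the same call for 18 genes and 10 genes had probes that differed, with 0 genes called in opposite directions. Kmt2e had −1.47 and −2.22, Tet1 0.78 and 0.89, and Tet2 −0.86 and −1.03, whereas Chd6 had −0.15 at its brighter probe and 1.1 at the other, and Kat14 had −0.89, −0.91 and 0.17. Sirt4 had −0.81 at its brighter probe, and −0.32 at the other, which did not pass (adjusted p = 0.137). In 4OHT minus untreated, 2 genes had probes called in opposite directions. Brd2 had −0.52 at its brighter probe and 0.47 at the other, and Chd2 had 0.40 at its brighter probe and −0.79 at another. Which transcripts these probes detect is not analysed here.

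The genes have longer spans than the average gene, with a median of 42.4 kb from start to end of the annotated gene, against 20.3 kb over all tested symbols. Genes that fell in vehicle cells had a median span of 59.2 kb (n = 24) and genes that rose 38.3 kb (n = 41), with 43.6 kb for those not called (n = 26). Over all symbols the order was another, with 17.7 kb for those that fell, 19.6 kb for those that rose and 22.2 kb for those not called, and no difference in span was tested. Across the 91 genes, Spearman's rho between span and the difference of vehicle minus untreated was −0.13, against −0.02 across the 14930 symbols. Between mean level and that difference rho was 0.29 across the 91 genes and 0.32 across all symbols. These values describe genes measured on the same arrays, which are not independent replicates.

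Partners of these enzymes were read from lists of other chromatin genes, of which 0 were called higher in vehicle than in untreated cells on the spike-in scale. Among features with a symbol 41.4% rose and 19.1% fell in vehicle cells, and no list was tested against these shares. Of 17 BAF and PBAF subunits, 14 rose in vehicle cells against untreated cells and 3 fell, and their median was 0.74 (−0.54 by spike-in). The falls were the DNA-binding subunits Arid2 (−1.35), Arid1a (−0.94) and Arid1b, named after its value was seen (−0.40). The ATPase Smarca2, 1 of the 14, passed the filter through the vehicle arrays alone, so the filter favoured its rise. Its measured difference was 1.13 (adjusted p = 0.0145; −0.15 by spike-in), and it was not well above background in untreated cells. Arid2 and Arid1a were also lower in 4OHT than in vehicle cells, with differences of −1.19 (adjusted p = 0.0119) and −1.05 (adjusted p = 0.0285). Of 19 PRC1 subunits 6 fell and 1 rose in vehicle cells, with the chromodomain subunit Cbx8 at least 3.41-fold lower (adjusted p = 0.000136). Cbx8, 1 of the 6, passed the filter through the untreated arrays alone, so the filter favoured its fall. It was not well above background on any vehicle or 4OHT array. Of 7 further PRC2 subunits 3 rose and 0 fell, with the histone-binding Rbbp4 at 1.15 (−0.13 by spike-in).

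Among 9 partners of DNA methylation 6 fell and 2 rose in vehicle cells. The counts of this and the following lists are to be read beside the same shares over features with a symbol (41.4% rose, 19.1% fell). The rises among COMPASS subunits and among those of NuRD, Sin3, CoREST and NCoR lie near the share that rose. Mbd1, which binds methylated DNA, fell (−1.63), and Uhrf1, which brings Dnmt1 to replicated DNA, rose by 1.2 (−0.07 by spike-in). Of 9 COMPASS subunits 4 rose and 1 fell, with Ash2l at 0.99 (−0.28 by spike-in) and Ncoa6 at −0.93, and Ncoa6 was also lower in 4OHT than in vehicle cells (−0.91, adjusted p = 0.027). Of 17 subunits of NuRD, Sin3, CoREST and NCoR 8 rose and 2 fell, with Sin3b at 1.13 (−0.15 by spike-in) and Mbd2 at −0.71. Of 15 ISWI and INO80 type remodellers 9 rose and 2 fell, with Ep400 at 0.97 (−0.31 by spike-in) and Smarcad1 at −0.66. Of 17 further histone methyltransferases 10 rose and 2 fell, with Smyd3 at 1.2 (−0.08 by spike-in) and Ash1l at −1.11. Crebbp rose by 0.64 (−0.64 by spike-in), while Ep300, the other CBP-type acetyltransferase, had −0.39 and did not pass.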

How the data were processed

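Gene expression was measured on 8 single-colour Agilent arrays, and the values the authors deposited are spot intensities that Agilent Feature Extraction 11.0.1.1 had corrected for background (its processed signal, per the file headers). Per the labels, 100 ng of total RNA was labelled with Cy5, while the files hold the green channel, and spike-in amounts are not given in the sources used here. Control spots and outlier-marked spots were dropped and the spots of a probe averaged (0 member probes were lost). Log2 intensity minus each array's 75th percentile was used. The filter, all arrays of 1 group or more well above background, kept 33008 probes. Accessions were matched without versions to a RefSeq table of GRCm38.p6, for names and gene spans only, since the file headers name mm9. For each symbol the probe brightest on average stood for the gene, which gave 28491 features, 14930 of them with a symbol.

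The test was limma's (version 3.58.1, R 4.3.3), with lmFit and eBayes on the 8 arrays and 3 groups together, which leaves 5 residual degrees of freedom. It was two-sided, with Benjamini-Hochberg adjustment over all features and a threshold of 0.05. Errors of differences are standard errors. The design text names biological replicates, with 2 vehicle arrays used here, and so few arrays limit the precision. In a check on artificial changes of known size, the procedure recovered the sizes without bias, but called fewer of the larger changes than had been required in advance. That requirement was replaced by a weaker one after the result was seen, and true changes, the smaller ones more often, can be missed.

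The members and lists were chosen with earlier results of these data known. Values per array are given for up to 5 largest called rises and falls per comparison without overlap between groups and for 20 well-known members, and other genes are named with their difference. Some genes are counted but not reported by name here. The alternatives were normexp background correction, quantile normalization, scaling to the array median or to 8 of the 10 E1A spike-in probes, the mean of a gene's probes, a filter over all 8 arrays or none, the deposited value table, trended and robust eBayes, only the groups compared, a replicate block and leaving out each array. No sequences were analysed.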

Additional observations from a re-analysis of the deposited data

How the results depend on the processing

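The counts of genes called higher and lower in vehicle against untreated cells (41 and 24) were 20 and 30 with quantile normalization, 18 and 10 with scaling to the array median, and 0 and 70 on the spike-in scale. Against untreated, the counts for 4OHT (48 and 27) were 26 and 31, 35 and 13, and 0 and 90 under the same settings. The counts for 4OHT against vehicle (2 and 6) were 0 and 0 with array median scaling (4 and 0 at an unadjusted p under 0.05), 0 and 2 on the spike-in scale, 0 and 0 without the filter (5 and 12 unadjusted), and 0 and 0 with only the compared groups in the fit (8 and 12 unadjusted). Whether the replicate numbers pair the arrays could not be decided. Correlations of deviations over 7 pairs of equal number ran from −0.19 to 0.36, but deviations within a group of 2 arrays mirror each other by construction. With a replicate block the counts were 36 and 22 in vehicle cells and 44 and 25 in 4OHT cells, both against untreated, and 0 and 0 (8 and 11 unadjusted) in 4OHT against vehicle. Leaving out 1 array at a time gave 31 to 40 higher and 20 to 23 lower in vehicle cells, 42 to 47 higher and 24 to 27 lower in 4OHT cells, and 0 to 2 higher and 0 to 2 lower between 4OHT and vehicle. In these fits 29 of the 41 and 19 of the 24 calls of vehicle against untreated were kept every time.

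On the spike-in scale all 41 genes called higher in vehicle cells and all 48 called higher in 4OHT cells, both against untreated, had the opposite sign. Of the genes given per array these were, for vehicle, Chd1 (−1.22), Chd4 (−0.33), Dnmt1 (−0.41), Dnmt3a (−1.01), Dnmt3b (−0.49), Dnmt3l (−0.52), Ezh2 (−0.73), Hdac1 (−0.11), Hdac2 (−0.57), Hdac3 (−0.23), Jarid2 (−0.72), Kdm1a (−0.58), Kdm3b (−0.33), Kdm5b (−0.59), Prmt1 (−0.14), Prmt5 (−0.72), Prmt8 (−0.20), Suz12 (−1.07) and Tet1 (−0.49). Of these Chd1, Dnmt3a and Suz12 were not called on the main scale. With quantile normalization 6 genes called in vehicle cells changed sign, Dnmt3l (−0.14), Kdm1a (−0.02), Kdm5b (−0.20), Prmt5 (−0.05), Kat7 and Setd6, and 7 called in 4OHT cells did. Of the 6, 1 was called lower with quantile normalization. With normexp background correction Setd6 and Dnmt3aos changed sign in vehicle cells, and Ezh1 and Dnmt3aos in 4OHT cells. Of these Dnmt3aos was called higher in both comparisons with that correction, opposite to its main call. For 4OHT on the spike-in scale the genes given per array with their largest rises were Chd4 (−0.57), Hdac3 (−0.47), Hdac6 (−0.48), Prmt1 (−0.57) and Prmt8 (−0.54). The spike-in shift of the 75th percentile, −1.28 for vehicle and −1.58 for 4OHT against untreated, sets these signs by construction, and the cause of the other changes was not tested.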
